A study of Rattus norvegicus with 3 samples.

Results

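The carbonic anhydrase genes Car2, Car3, Car4, Car5b, Car8 and Car14 were followed in rat soleus, a postural muscle of the lower leg made mostly of slow-twitch fibres. Each was read from the probe set annotated with that symbol alone, the brightest where a gene has several, and each of the 6 had a single probe set. They are 6 of 14506 genes named in this way, and all 6 were among the 10154 genes whose mean over the 3 arrays reached the 30th percentile (5.72, log2) and which were compared. The members were chosen with values of these arrays in view, so their differences are given as a description and nothing is supported by them.

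The rats were 7 weeks old, of a strain labelled Brown, and each of the 3 groups held 6 of them. All groups, the control included, were irradiated continuously for 2 weeks, with a total dose of 50 mSv. In group Ct nothing was added to the irradiation, denervation was added in group DN, and tail suspension, which takes the load off the hind limbs, in group TS. The RNA was pooled by group and each pool was read on 1 array, so there is no spread between samples, the groups could not be tested against each other, and a difference is one between pools. No unirradiated group is analysed here, and the labels say neither how the muscle was denervated nor for how long before sampling.

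Carbonic anhydrases interconvert carbon dioxide and water with bicarbonate and a proton. A working fibre makes carbon dioxide in its mitochondria and protons together with lactate, and the family is placed along the way out: enzymes in the cytosol, the mitochondrial matrix and on the outer face of membranes. Car3 is a slow enzyme but a very abundant protein of slow-twitch fibres, and it is also abundant in fat cells.

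Skeletal muscle markers were bright on every array, with log2 means over 8 genes of 13.26 (Ct), 12.85 (DN) and 13.13 (TS). The median over all 29170 probe sets was 6.32, 6.33 and 6.35 on the same arrays. Over the genes compared the TS median exceeded the Ct median by 0.13 (log2). At a 1.5-fold limit, TS exceeded Ct for 598 genes and lay below it for 272, so that 68.7% of these genes were higher, and with each array centred on its median 357 were higher and 400 lower, or 47.2% higher. For DN minus TS the split was 325 higher to 602 lower (35.1% higher) as deposited and 470 to 382 (55.2%) after centring.

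Car14, Car4 and Car3 were the members that stood furthest from Ct. In DN, 2 of the 6 members were at least 1.5-fold lower, Car14 and Car4, beside 5.53% of all genes compared, and none was higher by that much, beside 4.93%. In TS, 3 members were at least 1.5-fold lower, Car4, Car3 and Car14, beside 2.68% of all genes, and none was higher, beside 5.89%. Set directly against each other, DN was at least 1.5-fold above TS for Car3 (3.2% of genes were higher) and below TS for Car14 (5.93% were lower). The median difference of the 6 was -0.26 (log2) for DN minus Ct, where the median of all genes was 0, and -0.55 for TS minus Ct, where it was 0.02. Ct equalled DN exactly for 42.9% of the genes compared and TS for 24.7%, but for no member. Such ties are counted in the medians and shares of all genes. DN minus Ct and TS minus Ct share the Ct array. Because the members were chosen on these contrasts, nothing is read from the counts. In bulk RNA, fewer cells of a type and less RNA per cell cannot be told apart.

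**Figure D1:**
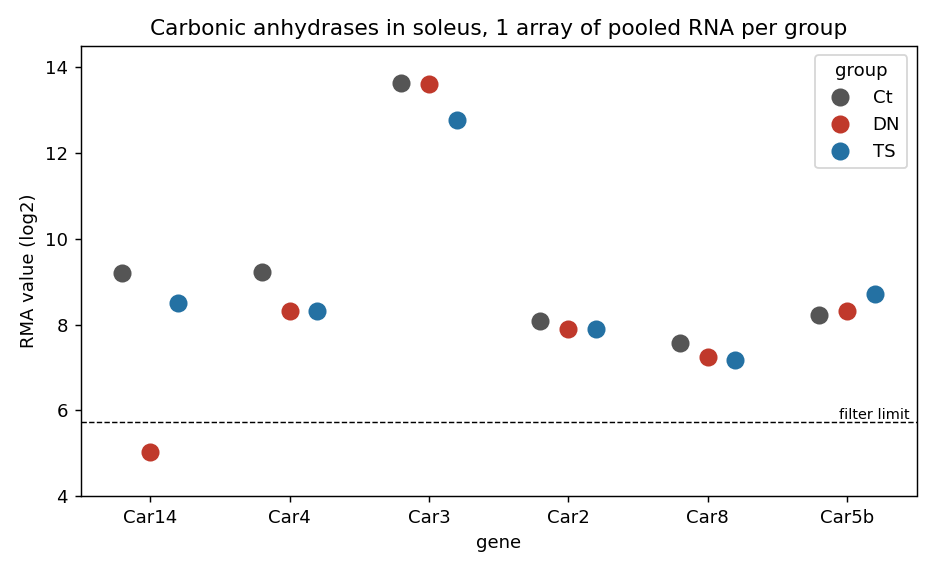
Deposited RMA value (log2, vertical axis) of each of the 6 carbonic anhydrase genes (horizontal axis) on the Ct, DN and TS arrays, 1 point per array and no error, since each group has 1 array. Levels of different genes come from different probes and are not comparable; within genes, Car14 in DN (5.03) is the only point below the dashed filter limit of 5.72.

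The widest gap was in Car14, a transmembrane enzyme whose catalytic domain faces the outside of the cell. Probe set 10825100 had log2 values of 9.20 in Ct, 5.03 in DN and 8.50 in TS. The denervated pool stands alone at the low end, and the suspended pool lies between it and Ct, nearer to Ct. DN minus Ct was -4.17, a 17.9-fold difference that leaves 5.57% of the Ct value, and TS minus Ct was -0.69, which leaves 61.8%. DN minus TS was -3.47 (log2), or 11.1-fold as deposited. Counting Car14 itself, 4 of the 10154 genes had a DN minus Ct difference this low, and 193 had a TS minus Ct difference as low as that of Car14. The DN reading is below the filter limit, and Car14 was compared only because its mean also holds the Ct and TS readings. When 32 was added to the linear values the DN minus Ct difference was -3.26 and DN minus TS -2.61, so their size depends on how a dim reading is treated.

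Among the genes compared, the nearest pair of differences (DN minus Ct and TS minus Ct, by Euclidean distance over these 3 arrays) to that of Car14 belonged to Scn4b, a regulatory beta subunit of voltage-gated sodium channels. Scn4b read 11.00 in Ct, 7.01 in DN and 10.50 in TS, and lay at a distance of 0.26. Ifit1, an interferon-inducible gene, read 7.28, 3.71 and 6.82 at a distance of 0.64, and Itgb1bp2, which encodes the muscle protein melusin, read 10.17, 6.88 and 9.25 at a distance of 0.91. These genes were picked for their likeness to Car14, so the shared pattern is no finding, and the DN readings of Car14 and Ifit1 lie under the filter limit.

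Car4 is the other membrane enzyme of the set, held on the outer face of the cell by a lipid anchor and known from muscle fibres and from capillary endothelium. Its probe set 10737047 read 9.22 in Ct, 8.32 in DN and 8.33 in TS. Both treated pools were below Ct by almost the same amount. DN minus Ct was -0.90 (1.86-fold lower) and TS minus Ct was -0.89 (1.85-fold lower), while DN and TS differed by 0.01. That last difference turned from -0.01 to 0.12 when each array was centred on its median. In TS, 105 of the 10154 genes, Car4 counted, stood this low against Ct, and in DN 289 did.

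The sequences of the start regions of both membrane enzymes are shown because both were lower in each treated pool, and they are the members with such a difference that have an entry in the RefSeq promoter table (GRCr8). Each run covers the 250 bases before the annotated start, 5′ to 3′ on the gene's strand, with every CANNTG hexamer (E-box, the core bound by helix-loop-helix factors such as the myogenic factors) in capitals. Car14 lies on the minus strand at chr2:186138165-186138414, and Car4 on the plus strand at chr10:70325108-70325357.
Car14: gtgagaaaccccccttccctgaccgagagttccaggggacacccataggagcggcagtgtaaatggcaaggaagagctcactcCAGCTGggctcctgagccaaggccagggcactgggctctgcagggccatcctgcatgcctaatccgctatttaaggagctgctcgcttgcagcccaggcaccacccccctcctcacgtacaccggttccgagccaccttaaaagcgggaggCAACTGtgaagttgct
Car4: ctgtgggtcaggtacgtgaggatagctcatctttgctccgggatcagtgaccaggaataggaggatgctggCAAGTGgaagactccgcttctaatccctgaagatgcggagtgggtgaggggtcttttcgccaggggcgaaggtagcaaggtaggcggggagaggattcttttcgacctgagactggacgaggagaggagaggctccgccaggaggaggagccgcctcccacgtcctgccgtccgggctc
The Car14 run holds 2 E-boxes, CAGCTG from 167 to 162 bases and CAACTG from 16 to 11 bases before the start. The Car4 run holds 1, CAAGTG, from 179 to 174 bases before the start. Of 27457 RefSeq promoters of the same length 65.2% hold a CANNTG on either strand, and 11.9% hold CAGCTG, which is itself a CANNTG. The letters ACGTG, the core of the hypoxia response element, occur once in the Car14 run and 2 times in the Car4 run on either strand, and in 16.9% of the promoters. Neither run holds TATAAA (13.1% of promoters), GGGCGG (32.4%), an MEF2 motif (3.07%) or an SRF motif (1.5%). The table's entry for Car5b holds none of the motifs searched. These are matches of letters in a fixed window and are not evidence of binding.

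**Figure D2:**
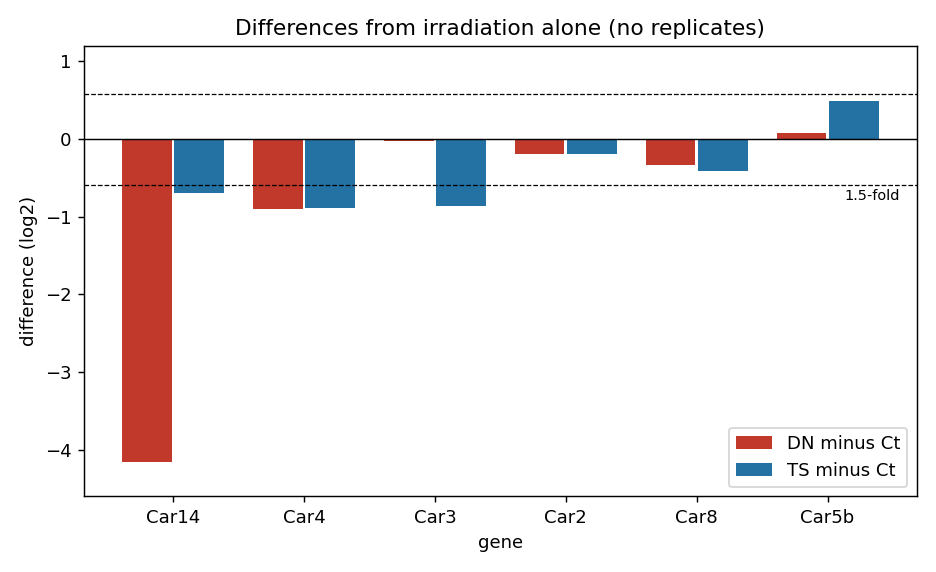
Difference from the Ct array (log2, vertical axis) for each gene (horizontal axis), with red bars for DN minus Ct and blue bars for TS minus Ct; bars start at 0, dashed lines mark 1.5-fold, and there is no error bar because each group has 1 array. Car14 in DN reaches -4.17, Car4 is near -0.9 in both, and Car3 is near 0 in DN and at -0.87 in TS.

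Car3 separated the treatments the other way round. Its probe set 10822242 read 13.65 in Ct, 13.62 in DN and 12.78 in TS. Ct and DN were nearly level, and the suspended pool was the low one. TS minus Ct was -0.87 (1.82-fold lower), DN minus Ct was -0.03 and DN minus TS was 0.84 (1.79-fold higher). Counting Car3 itself, 120 of 10154 genes stood as low in TS against Ct. The Ct and DN readings lie 0.34 and 0.28 below the highest value of their arrays and the TS reading 1.21 below, so differences at this end may be compressed. Under the scalings tried, TS minus Ct ran from -1.0 to -0.74.

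Car2, the fast cytosolic enzyme, is known from red blood cells and many tissues. Its probe set 10822234 read 8.09 in Ct and 7.89 in both DN and TS. Both treated pools were 0.20 below Ct, a 1.14-fold difference, and their deposited values are identical to the last digit. Exact equality is common here: Ct equalled DN for 42.9% of the genes compared and TS for 24.7%, and DN equalled TS for 26.3%. An equal value therefore does not show that the pools held the same amount.

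In the GRCr8 gene order Car2, Car3, Car1 and Car13 follow each other with no other protein-coding gene between them. Car3 was at least 1.5-fold below Ct in TS and Car2 was not. Car1, the red cell enzyme, read 4.87 in Ct, 5.59 in DN and 4.96 in TS, and Car13 read 5.42 on all 3 arrays, both below the filter limit, where a pattern could not be read.

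Car8 is a relative that has lost a zinc-binding histidine and with it the catalytic activity, and it binds the inositol trisphosphate receptor of the endoplasmic reticulum. Its probe set 10875375 read 7.58 in Ct, 7.26 in DN and 7.17 in TS. Both treated pools were lower than Ct, by 1.26-fold in DN (-0.33) and 1.33-fold in TS (-0.41), short of the 1.5-fold limit in each. DN and TS differed from each other by 0.08.

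Car5b, the mitochondrial enzyme, was the member that stood above Ct in the suspended pool. Its probe set 10933449 read 8.24 in Ct, 8.31 in DN and 8.73 in TS. Ct and DN were close, and TS was the high array. TS minus Ct was 0.49 (1.40-fold higher), short of 1.5-fold, and DN minus Ct was 0.08. With each array centred on its median TS minus Ct was 0.36. In TS, 898 of the 10154 genes, Car5b counted, stood this high against Ct.

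The order of the 3 arrays thus differed within the family. Ct was the highest array for Car14, Car4, Car2 and Car8, and TS for Car5b. DN was the lowest array for Car14 and TS for Car3. As deposited, Ct and DN lay within 0.1 of each other in Car3 and Car5b, as did DN and TS in Car4, Car2 and Car8. These pairs were not ordered. With each array centred on its median, DN minus TS was 0.12 in Car4, 0.13 in Car2 and 0.21 in Car8. With 1 array per group the spread is not known, so no step in these orders can be set against it.

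**Figure D3:**
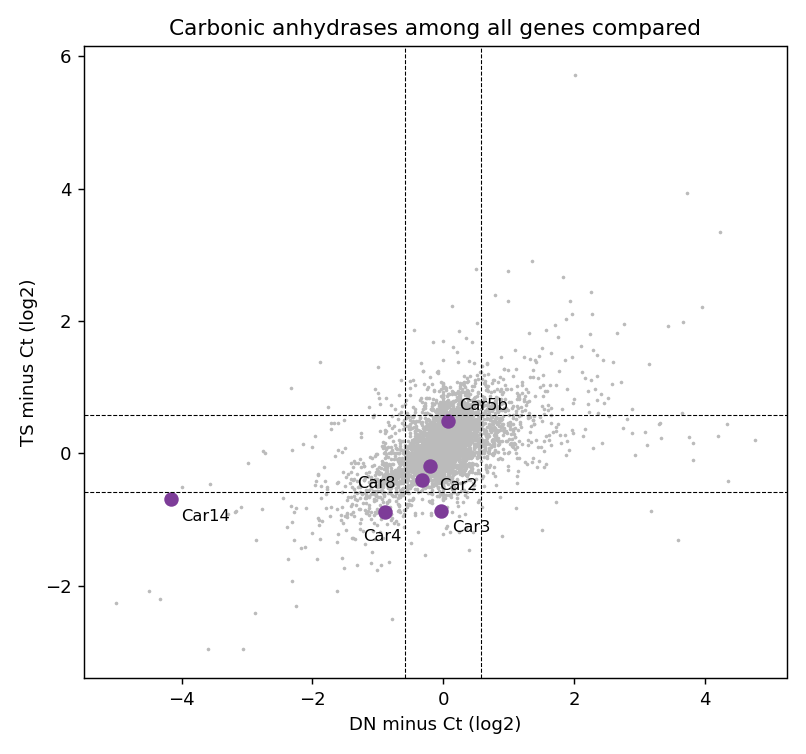
Each grey point is 1 of the 10154 genes compared, with DN minus Ct (log2) on the horizontal and TS minus Ct (log2) on the vertical axis; purple points are the 6 carbonic anhydrases and dashed lines mark 1.5-fold. Car14 lies at the far left (-4.17, -0.69), Car4 at (-0.90, -0.89) and Car3 at (-0.03, -0.87); both axes share the Ct array, so the slant of the cloud is no result.

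The array also carries 9 other carbonic anhydrase genes with 1 symbol each, of which 3 passed the filter (Car11, Car5a and Car6) and none of these differed by 1.5-fold. Of the 9, 5 had exactly the same value on all 3 arrays. Car11, a relative without catalytic activity, read 8.08 in Ct, 8.16 in DN and 8.08 in TS. Car12, a transmembrane enzyme known as a hypoxia target, had a mean below the filter limit, though its Ct reading was above it. It read 6.43 in Ct and 5.14 in both DN and TS, a difference of -1.29. That low value was also the value of 60 probe sets on the DN array and 88 on the TS array, counting Car12. The Ct value was that of 22 probe sets on the Ct array, Car12 counted. These readings may therefore hold little information on this gene. Car1 was 0.72 higher in DN than in Ct. Car9, a hypoxia-induced enzyme, read 5.44, 5.44 and 5.28.

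The genes listed under proton, lactate and bicarbonate transport were mixed in DN and mostly within the limit in TS. The list is broad, and Slc16a10, Atp1b1, Atp1b2 and Atp1b4 in it are not carriers of these substances. Of 15 compared, 3 were at least 1.5-fold higher and 5 lower in DN, with a median of -0.08, and none was higher and 3 were lower in TS, with a median of -0.15. Over all genes compared the shares were 4.93% higher and 5.53% lower in DN, and 5.89% higher and 2.68% lower in TS. Slc16a3, the lactate exporter MCT4, read 8.91 in Ct, 6.77 in DN and 9.05 in TS, so that DN was the low array. Emb, which encodes embigin, a chaperone of lactate transporters, read 8.21, 12.56 and 7.79, with DN the high array by 4.35 over Ct. Slc4a3, a chloride and bicarbonate exchanger, read 8.79, 9.17 and 7.32, with TS minus Ct at -1.46. Slc16a7 (MCT2) read 7.96, 6.61 and 7.37. Slc16a1, the lactate transporter MCT1, read 11.01, 9.70 and 10.32, and its chaperone Bsg (basigin) 11.55, 12.18 and 11.58; both were named after their values were seen. Slc16a10 (-1.35) and Atp1b4 (-1.22) were the other members lower in DN, and Slc9a9 (0.92), an endosomal sodium and proton exchanger, was higher beside Emb and Bsg; they too were named after their values were seen. Slc16a3, Slc16a1, Slc16a7, Slc16a10 and Atp1b4 were all lowest in DN, and all of them except Slc16a3 were below Ct in both treated pools. No likeness to single carbonic anhydrases is therefore read from this list.

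**Figure D4:**
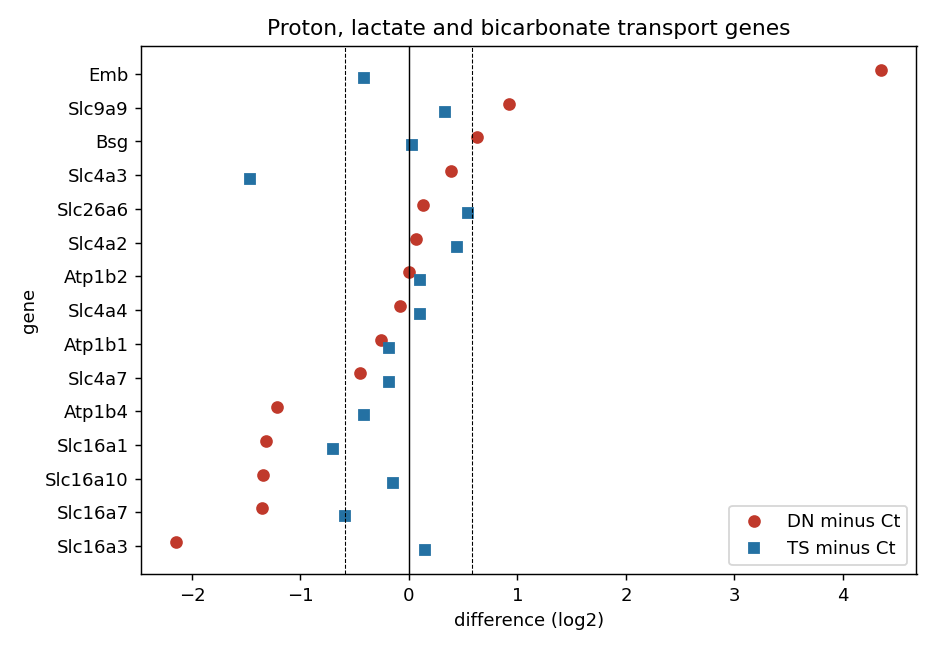
Difference from Ct (log2, horizontal axis) for the 15 genes compared of the transport list (vertical axis, ordered by DN minus Ct). Red circles show DN minus Ct and blue squares TS minus Ct. Dashed lines mark 1.5-fold and there are no replicates. Emb lies at 4.35 and Slc16a3 at -2.14 in DN, whereas Slc4a3 has the lowest TS value (-1.46).

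Enzymes that release carbon dioxide or fix bicarbonate, most of them mitochondrial like Car5b, had negative medians in both pools. Of 17 compared, 6 were at least 1.5-fold lower and 1 higher in DN, with a median of -0.52, and 2 were lower and 1 higher in TS, with a median of -0.33; after centring 6 were lower and none higher in TS. The shares over all genes as deposited were 5.53% lower and 4.93% higher in DN, and 2.68% and 5.89% in TS. After centring, 400 of the 10154 genes compared (3.94%) were lower in TS and 357 higher. Centring moved every TS minus Ct difference down by 0.13 (log2), whereas the median difference of all genes was 0.02. Idh3b, a subunit of the mitochondrial isocitrate dehydrogenase, read 12.11 in Ct, 11.12 in DN and 11.63 in TS. Ogdh, of the oxoglutarate dehydrogenase complex, read 12.30, 11.53 and 11.65, and Mccc2, of the biotin enzyme of leucine breakdown, 9.96, 8.99 and 9.44. The higher member was Me2, a mitochondrial malic enzyme, at 7.81, 9.36 and 8.48. Car5b, at 0.08 and 0.49, was not lower in either pool. In the list, Me2 was also higher in both pools. Pc (-0.02 in DN and 0.38 in TS) and Idh3a (-0.39 and 0.25) were above Ct in TS, and the rest were below it there. Pc and Idh3a were named after their values were seen.

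Genes of slow fibres, where Car3 protein is abundant, had negative medians in both pools. In DN, 8 of 14 slow-fibre genes lay below Ct by at least 1.5-fold and 1 above it (median -0.65), and 3 were lower and none higher in TS (median -0.32). Of all genes compared, 5.53% were this much lower and 4.93% higher in DN, and 2.68% lower and 5.89% higher in TS, which also holds for the counts that follow. Their mean level was 12.82 in Ct, 12.19 in DN and 12.45 in TS, so the mean was lowest in DN, whereas Car3 was lowest in TS. Single genes differed in this. Myh7b, Myoz2 (-0.59 in DN and -0.85 in TS against Ct) and Mb (0.09 and -0.34) were lowest in TS like Car3. So was Tnnt1, by 0.05. Sln was lowest in Ct and the others in DN. Myoz2, Mb and Tnnt1 were named after their values were seen. Myl3, the slow light chain, read 13.70, 12.40 and 13.19, Myh7b 9.26, 7.94 and 7.58, Ankrd2 13.40, 11.40 and 13.49, and Sln, a calcium pump regulator, 12.13, 13.32 and 12.71. Of 15 fast-fibre genes, 8 were higher and 3 lower in DN, and 10 higher and none lower in TS, with mean levels of 10.25, 11.11 and 11.75; Myh4, Myh1, Tnni2 and Pvalb differed most. All 11 denervation-responsive genes compared were at least 1.5-fold higher in DN, among them Chrng, Chrna1, Runx1 and Myod1, and 6 were higher and 2 lower in TS. The gene lists were chosen with earlier results of these data known, so their counts are a description and nothing is supported by them. The part of fibre type in the values of Car3 and Car14 was not tested.

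Markers of other cell types were counted at the same limit against Ct, and apart from the adipocyte list in TS (6 of 12 within) most members of each list stayed within it. The shares over all genes, 5.53% lower and 4.93% higher in DN and 2.68% lower and 5.89% higher in TS, apply to each count against Ct as deposited. For DN against TS, 5.93% of all genes were lower. After centring, 492 of the 10154 genes compared were higher and 566 lower in DN against Ct, and 357 were higher and 400 lower in TS. Of 11 endothelial markers, 2 were at least 1.5-fold lower in DN and 1 in TS, none was higher, and the mean level was 9.55 in Ct, 9.21 in DN and 9.42 in TS. Kdr read 10.20, 9.33 and 9.46, while Flt1 stood at -0.7 in DN and -0.11 in TS against Ct, and Esam at -0.41 and 0.36. Smooth muscle and pericyte markers had 3 of 10 lower in DN and none past the limit in TS, with means of 9.53, 9.17 and 9.50 and Kcnj8, Cspg4 and Tagln differing most. Of 12 adipocyte markers, 5 were higher in DN and 5 in TS, and 1 was lower in TS, with means of 8.42, 9.16 and 8.94; Adipoq read 7.82, 9.92 and 9.45, Scd 7.95, 10.16 and 8.69 and Cfd 8.44, 9.76 and 9.86. Lpl, lipoprotein lipase, which muscle also expresses, read 12.60, 12.17 and 11.70 and was the lower member in TS, and Fabp4, the fatty acid carrier of fat cells, read 11.38, 11.36 and 10.95; both were named after their values were seen. Erythroid markers, which bear on Car2 and Car1, had 3 of 7 above the filter, with means of 9.51, 9.08 and 9.81 and none past 1.5-fold against Ct, although 2 of the 3, Hbb and Alas2, stood past that limit below TS in DN; Hbb read 10.94, 10.58 and 11.50, Hbb-b1 10.52, 9.99 and 10.41 and Alas2 7.08, 6.65 and 7.53. Macrophage and osteoclast markers had none of 11 past the limit in DN and 4 higher in TS (2 after centring), with means of 8.56, 8.76 and 9.08 and Cd163, Mrc1 and C1qb differing most. Schwann cell and nerve markers had 2 of 7 higher in DN and 1 higher and 1 lower in TS, with means of 7.82, 8.02 and 7.94 and Egr2, Cnp and Prx differing most; after centring 1 was higher in DN and none in TS. Among the 8 skeletal muscle genes, 2 were lower in DN and 1 in TS, with Ckm, Myot and Myh7 differing most. The part of any of these cell types in the values of the carbonic anhydrases was not tested.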

How the data were processed

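Each of 3 soleus RNA pools (6 rats each) was hybridised to 1 Rat Gene 1.0 ST array; the series text speaks of 2 arrays, and 3 samples with values were used. The log2 values were made by the authors with Affymetrix Expression Console by RMA in a core-exon analysis, per the labels and processing notes of the submitters. The values run from 1.77 to 13.99; the base of the logarithm is not stated, and folds rest on base 2. The sources used here give no tool version, annotation or build.

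Symbols came from the platform annotation: 15310 of 29170 probe sets had 1 symbol, 15279 of them were found in a GRCr8 table, and no symbol changed. Per gene the brightest probe set was kept, genes under the 30th percentile were left out, and differences of log2 values were counted at 1.5-fold. Of the 6 members, 3 (Car14, Car4 and Car5b) had an entry in the RefSeq promoter table. Members and gene lists were chosen with earlier results of these data known. The 6 members were always named, with other carbonic anhydrases past 1.5-fold and the 3 nearest patterns of members past 2-fold. Of each list, the 4 (pathways) or 3 (markers) members that differed most were named. Slc16a1, Slc16a10, Slc9a9, Atp1b4, Bsg, Lpl, Fabp4, Car9, Pc, Idh3a, Myoz2, Mb and Tnnt1 fall outside this rule. With 1 array per group no p-value was computed, and the number of arrays limits the precision. Alternatives were centring, quantile normalization, removal of a loess trend (span 0.3), an offset of 32 on linear values, averaging of probe sets, no filter or the 50th percentile, and limits of 2-fold and 3-fold. The code was run on simulated data with little noise and planted shifts well past the limit. That checks the arithmetic and says nothing of the spread of these arrays. Python 3.11.15, numpy 2.4.6, pandas 2.3.3, statsmodels 0.14.6 and matplotlib 3.10.9 were used.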

Additional observations from a re-analysis of the deposited data

How the results depend on the processing

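The counts of members past 1.5-fold were the same under centring, loess, quantile normalization, 32 added on the linear scale and the 50th percentile filter. They were also the same under the mean of probe sets and no filter. Those 2 settings could not change them, since each member has a single probe set and already passed the filter. At a 2-fold limit 1 member was lower in DN than in Ct (Car14), 0 were lower in TS than in Ct and 0 were higher in DN than in TS. At 3-fold these counts were again 1, 0 and 0. Of the 10154 genes compared, 227, 70 and 122 passed the 2-fold limit in these directions, and 71, 19 and 50 the 3-fold limit. All 90 recomputed differences of single members stayed on their side of the 1.5-fold limit, including those under the mean of probe sets, which could not differ. Car14 ran from -4.18 to -3.26 (log2) for DN minus Ct and from -0.83 to -0.65 for TS minus Ct, Car4 from -0.90 to -0.83 and from -1.02 to -0.83, and Car5b for TS minus Ct from 0.36 to 0.49. Over all genes, centring moved the count higher in TS than in Ct from 598 to 357 and the count lower in DN than in TS from 602 to 382. No paired analysis was possible because each group has 1 array, and no replicate could be left out. Dim readings (Car14 in DN, Car12 and Car1) and readings near the top of the scale (Car3) limit the precision of their differences.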
